A study of Homo sapiens with 4 samples.

Results

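The genes described here are 9 genes of alkyl-group removal and of the helicase complex that works with it: the dioxygenase genes ALKBH1, ALKBH2, ALKBH3, ALKBH5, ALKBH8 and FTO, and the ASCC genes ASCC1, ASCC2 and ASCC3. They were chosen by name from a table of 58219 gene IDs, and all 9 were present and passed the filter on low values, among 16132 genes tested. Expression was measured by RNA-seq in GBM8401, a human malignant glioma cell line, in 2 libraries of the parental line (treatment label parental) and 2 of a line derived from it (label TMZ-resistant). The derived line was grown in medium containing 200 µM temozolomide (TMZ) over 140 days, and both lines share the base medium, RPMI1640 with fetal bovine serum. The resistant libraries come from 1 derived line, whether TMZ was in the medium at harvest is not given in the sources used here, and the labels call the replicates biological without saying what separated them. All p-values thus rest on the spread between these 4 libraries, which may be technical.

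TMZ is a methylating drug. Beside O6-methylguanine it leaves N-methylated bases in DNA and RNA. The ALKBH enzymes are relatives of bacterial AlkB that use iron, oxygen and 2-oxoglutarate to oxidise a methyl group, which then leaves as formaldehyde. ALKBH2 and ALKBH3 repair 1-methyladenine and 3-methylcytosine in DNA, the first in double-stranded DNA near replication forks, the second in single-stranded DNA and RNA. FTO and ALKBH5 remove N6-methyladenosine (m6A) from RNA, and ALKBH1 and ALKBH8 act on transfer RNA (tRNA). ASCC3 is a helicase that unwinds DNA for ALKBH3, ASCC2 binds ubiquitin chains at sites of alkylation damage, and ASCC1 is a further subunit of the complex. ASCC2 and ASCC3 also act on collided ribosomes.

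None of the 9 genes passed the test between resistant and parental cells (limma on log2 values, adjusted p under 0.05 over all genes tested). The count was 0 of 9 in either direction, where 37.1% of all genes passed, 16.2% as higher and 20.9% as lower. Log2 fold changes, given throughout as resistant minus parental, ran from −0.27 for ALKBH8 to 0.20 for ASCC1, and their median was −0.01 against −0.02 for all genes. ALKBH5 and ALKBH8, both with lower values in resistant cells, were the 2 members with an unadjusted p under 0.05, where 46.7% of all genes had one. The median size of the change, with the sign ignored, was 0.20 for the members, 0.32 for all genes, and 0.26 for the 7961 genes whose mean level lay within the range of the members. The share of all calls that were higher was 43.7%, and 56.9% after scaling to the library total, which moved the median of all genes to 0.08.

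Upstream sequence was taken from RefSeq (GRCh38.p14), which held 8 of the 9 genes and not ASCC3. Each window runs from 250 bases before to 50 bases after a gene's start. Windows were searched on both strands for letters linked to factors of housekeeping, cell cycle and stress promoters. These were the ETS motif CCGGAAGT, the CCAAT box (CCAAT), the palindromic NRF1 motif, the cyclic AMP response element TGACGTCA, the TATA box TATAAA, and the E2F motifs TTTGGCGC, TTTCGCGC, TTTCCCGC and TTTGCCGC. The ETS letters were found in 3 of the 8 genes, ALKBH2, ALKBH3 and ASCC2, or 3 of the members' 10 windows, and in 4.14% of all 35116 RefSeq windows. These letters hold a CpG, and the windows of all genes were not matched to the members for CpG number (median 14 against 22). The CCAAT letters were found in ALKBH3 and ALKBH8, 2 of the 8 genes and 2 of the 10 windows, and in 34.6% of all windows. The letters of E2F (3.31% of all windows), NRF1 (1.24%), the cyclic AMP response element (1.85%) and TATA (11.5%) were in none of the 8 genes' windows. The first 3 windows below are those with ETS letters. ALKBH1 is shown as an example of a window that holds the start of a second gene. Other windows may hold one too, since FTO and ASCC1 overlap RPGRIP1L and ANAPC16 on the opposite strand. Whether RPGRIP1L and ANAPC16 start inside the windows of FTO and ASCC1 was not tested. The window of ALKBH2 is chr12:109093423-109093722, minus strand, that of ALKBH3 is chr11:43880581-43880880, plus strand, that of ASCC2 is chr22:29838225-29838524, minus strand and that of ALKBH1 is chr14:77707974-77708273, minus strand. Capitals mark the letters that matched a motif, on either strand, and ALKBH1 has none.
ALKBH2: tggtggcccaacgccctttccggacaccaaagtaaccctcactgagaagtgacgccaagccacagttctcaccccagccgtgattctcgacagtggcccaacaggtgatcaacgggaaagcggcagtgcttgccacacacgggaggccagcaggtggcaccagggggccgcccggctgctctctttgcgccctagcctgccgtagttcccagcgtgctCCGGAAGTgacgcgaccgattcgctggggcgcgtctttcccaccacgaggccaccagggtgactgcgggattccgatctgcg
ALKBH3: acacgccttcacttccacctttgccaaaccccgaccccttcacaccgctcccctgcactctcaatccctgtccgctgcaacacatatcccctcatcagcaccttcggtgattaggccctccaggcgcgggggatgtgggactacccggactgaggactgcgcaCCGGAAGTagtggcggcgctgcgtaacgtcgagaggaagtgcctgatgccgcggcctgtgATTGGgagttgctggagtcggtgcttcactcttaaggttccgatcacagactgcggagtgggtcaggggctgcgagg
ASCC2: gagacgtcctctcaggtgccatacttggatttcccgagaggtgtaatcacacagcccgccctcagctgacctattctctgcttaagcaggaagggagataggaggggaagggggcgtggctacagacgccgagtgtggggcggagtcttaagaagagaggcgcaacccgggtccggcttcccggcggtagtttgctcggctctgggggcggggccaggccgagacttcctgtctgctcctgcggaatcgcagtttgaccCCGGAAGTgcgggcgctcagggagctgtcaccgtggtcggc
ALKBH1: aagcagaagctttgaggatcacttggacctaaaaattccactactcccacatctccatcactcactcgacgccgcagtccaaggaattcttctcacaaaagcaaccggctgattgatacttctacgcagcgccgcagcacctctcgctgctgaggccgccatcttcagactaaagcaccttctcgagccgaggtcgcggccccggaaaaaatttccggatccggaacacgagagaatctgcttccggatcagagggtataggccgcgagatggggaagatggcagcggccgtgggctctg

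The windows are rich in GC, as is common for genes that most cells use. Over the 10 windows of the members, of which ASCC1 has 3, the median GC content was 63.0% and the median number of CpG dinucleotides was 22, against 58.7% and 14 over all windows. ALKBH8 had the lowest values, 50.7% and 11, and ALKBH5 the highest, 71.0% and 39. The start of ALKBH1 lies 51 bases from that of SLIRP, which is read in the opposite direction and encodes a binding protein of mitochondrial mRNAs. SLIRP had values of 432 and 448 in parental and 382 and 402 in resistant cells, and like ALKBH1 it did not pass (log2 fold change −0.17 ± 0.11 SE, limma adjusted p = 0.282).

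The DNA repair dioxygenases ALKBH2 and ALKBH3 had slightly higher values in resistant cells, and neither passed. ALKBH2 (ENSG00000189046, chromosome 12, 109088188 to 109093631, minus strand) had deposited values, which are fragment numbers scaled by the authors for each library, of 625 and 588 in parental replicates 1 and 2 and 626 and 631 in resistant replicates 1 and 2. Gene coordinates are those of GENCODE 29 on GRCh38. The resistant libraries lay just above the higher parental one. Its means were 606 ± 26.0 for parental and 628 ± 3.70 for resistant cells (SD, n = 2), and the log2 fold change was 0.05 ± 0.10 (SE) with a 95% interval of −0.18 to 0.28 (limma, adjusted p = 0.728). ALKBH3 (ENSG00000166199, chromosome 11, 43880811 to 43920266, plus strand) had values of 608 and 730 in parental and 758 and 774 in resistant cells. Parental replicate 1 stood lowest, and the groups did not overlap. The means were 669 ± 86.2 for parental and 766 ± 10.9 for resistant cells (SD, n = 2), and the log2 fold change was 0.20 ± 0.11 (SE) with an interval of −0.06 to 0.46 (limma, adjusted p = 0.208). Without parental replicate 1 the ALKBH3 value was 0.07, and without parental replicate 2 it was 0.33, neither of which passed. ALKBH3 passed with scaling to the library total (0.30, limma adjusted p = 0.0425). A pseudogene inside ALKBH3 on the same strand, SEC14L1P1, had values of 40.7 and 44.9 in parental and 68.5 and 76.4 in resistant cells.

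The start of ALKBH2 lies 3943 bases from that of UNG, the uracil-DNA glycosylase gene on the opposite strand, which fell in resistant cells. UNG had values of 3164 and 3071 in parental and 1793 and 1994 in resistant cells, 1.65-fold lower (log2 fold change −0.72 ± 0.08 SE, limma adjusted p = 4.95e-04). ALKBH2 also binds the sliding clamp PCNA, which belongs to a list of 13 S phase genes used here for comparison. All 13, UNG among them, fell by the same test (median −0.82 on the log2 scale), where 20.9% of all genes fell. They include RRM2, of ribonucleotide reductase (−0.96), GINS2 and MCM4, of the replicative helicase (−1.28 and −0.95), and PCNA itself (−0.86). Whether the ALKBH2 value differs from those of the S phase genes was not tested, and the list was composed with its fall known.

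The tRNA dioxygenases ALKBH1 and ALKBH8 both had lower values in resistant cells, and neither passed. ALKBH8 (ENSG00000137760, chromosome 11, 107502726 to 107565746, minus strand), which joins a methyltransferase to a dioxygenase and completes wobble uridines of tRNA, had values of 693 and 696 in parental and 588 and 561 in resistant cells. The groups were apart and the replicates close. Means were 695 ± 2.08 for parental and 575 ± 18.9 for resistant cells (SD, n = 2), and the log2 fold change was −0.27 ± 0.10 (SE) with an interval of −0.50 to −0.05. Its adjusted p of 0.0605 (limma) was the smallest of the 9. ALKBH1 (ENSG00000100601, chromosome 14, 77672404 to 77708020, minus strand), which acts on 1-methyladenosine in tRNA and on mitochondrial tRNA, had the lowest deposited values of the members, 358 and 337 in parental and 277 and 318 in resistant cells. Resistant replicate 1 stood lowest, and the groups did not overlap. Means were 348 ± 14.5 for parental and 298 ± 29.2 for resistant cells (SD, n = 2), and the log2 fold change was −0.23 ± 0.13 (SE) with an interval of −0.53 to 0.08 (limma, adjusted p = 0.217).

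Of the m6A demethylases, ALKBH5 had lower and FTO higher values in resistant cells, and neither passed. ALKBH5 (ENSG00000091542, chromosome 17, 18183078 to 18209954, plus strand) had values of 2442 and 2785 in parental and 2120 and 2291 in resistant cells. Both resistant libraries lay below both parental ones, with a gap smaller than that between the parental libraries. Means were 2614 ± 243 for parental and 2206 ± 121 for resistant cells (SD, n = 2), and the log2 fold change was −0.24 ± 0.09 (SE) with an interval of −0.45 to −0.03 (limma, adjusted p = 0.0705). ALKBH5 passed without parental replicate 1 (−0.34, limma adjusted p = 0.0295), while without parental replicate 2 the value was −0.15. FTO (ENSG00000140718, chromosome 16, 53701692 to 54158512, plus strand), which also demethylates the cap-adjacent nucleotide m6Am, had values of 2394 and 2426 in parental and 2462 and 2722 in resistant cells. Resistant replicate 2 stood highest, and resistant replicate 1 lay just above the parental libraries. The log2 fold change was 0.10 ± 0.08 (SE), from means of 2410 ± 22.3 for parental and 2592 ± 184 for resistant cells (SD, n = 2), with an interval of −0.09 to 0.29 (limma, adjusted p = 0.368). FTO passed with quantile normalization (0.22, limma adjusted p = 0.0400). It overlaps RPGRIP1L, a gene of the primary cilium on the other strand, which had values of 774 and 773 in parental and 694 and 712 in resistant cells and did not pass (log2 fold change −0.14, limma adjusted p = 0.285).

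Among the ASCC genes, 1 had near-equal values, 1 lower and 1 higher values in resistant cells, and none passed. ASCC3 (ENSG00000112249, chromosome 6, 100508194 to 100881372, minus strand) had the highest deposited values of the members, 5030 and 5007 in parental and 4960 and 5041 in resistant cells. The groups overlapped in the deposited values, the only such case among the 9. Means were 5018 ± 16.1 for parental and 5000 ± 57.8 for resistant cells (SD, n = 2). The log2 fold change was −0.01 ± 0.07 (SE), with the narrowest interval of the members, −0.16 to 0.15 (limma, adjusted p = 0.964), and its sign turned with scaling to the library total (0.09), by TMM, the trimmed mean of M values (0.04), by the median of ratios (0.02) and by quantiles (0.13). ASCC2 (ENSG00000100325, chromosome 22, 29788608 to 29838304, minus strand) had values of 1751 and 1673 in parental and 1515 and 1567 in resistant cells. The resistant libraries lay below the parental ones. Means were 1712 ± 54.8 for parental and 1541 ± 36.6 for resistant cells (SD, n = 2), and the log2 fold change was −0.15 ± 0.08 (SE) with an interval of −0.34 to 0.03 (limma, adjusted p = 0.180). ASCC1 (ENSG00000138303, chromosome 10, 72096032 to 72217134, minus strand) had values of 630 and 614 in parental and 710 and 720 in resistant cells. Replicates were close and the groups apart, with means of 622 ± 11.8 for parental and 715 ± 7.12 for resistant cells (SD, n = 2) and with a log2 fold change of 0.20 ± 0.10 (SE), interval −0.02 to 0.42 (limma, adjusted p = 0.139). ASCC1 passed with scaling to the library total (0.30, limma adjusted p = 0.0327).

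ASCC1 overlaps ANAPC16, a subunit gene of the anaphase-promoting complex, on the opposite strand. ANAPC16 rose, from 824 and 781 in parental to 1048 and 1051 in resistant cells (log2 fold change 0.39, limma adjusted p = 0.0110). The library kit keeps the strand, per the labels, but the strand setting of the counting is not given in the sources used here, so fragments of the overlap cannot be assigned to one of these genes with certainty. Among 15 tested coding genes within 1 Mb of ASCC1, ANAPC16 included, 5 rose and 2 fell, with a median log2 fold change of 0.23. Of all genes, 16.2% rose and 20.9% fell. Within the same distance of the other members, medians ran from −0.14 around FTO (7 genes) to 0.06 around ALKBH3 (6 genes), beside 0.59 around ASCC3, which has 2 such neighbours. Whether the ASCC1 value follows its neighbours was not tested.

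**Figure D1:**
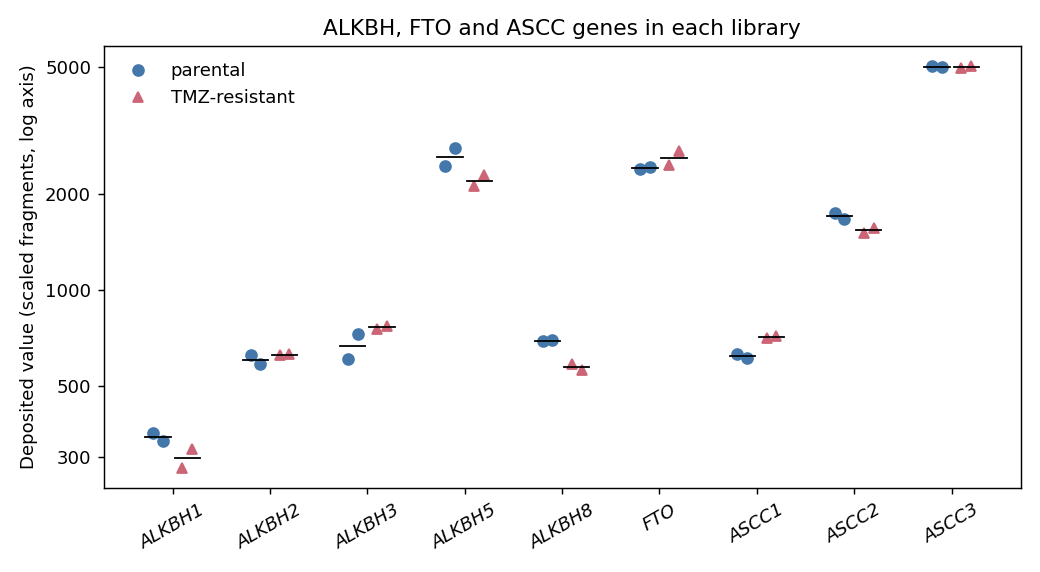
Deposited values (scaled fragments, log axis) of the 9 genes in each library, with parental libraries as circles, resistant libraries as triangles and the group mean as a black bar. ASCC3 sits near 5000 in every library, and ALKBH1 lies lowest in each group.

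The 2 groups of libraries did not overlap in 8 of the 9 genes, 4 with the resistant libraries above (ALKBH2, ALKBH3, FTO and ASCC1) and 4 with them below (ALKBH1, ALKBH5, ALKBH8 and ASCC2). The same held for 68.6% of all genes tested, 32.2% above and 36.4% below. These counts are for the deposited scaling. In the per-length levels given below, ASCC3 was apart, with the resistant libraries above, while ALKBH1 and ASCC2 overlapped. The intervals give the size of change that these libraries leave possible. The lowest bound among the 9 was that of ALKBH1, at 1.44-fold lower, and the highest was that of ALKBH3, at 1.38-fold higher. A miss of the threshold here does not show that a gene was equal in both lines.

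**Figure D2:**
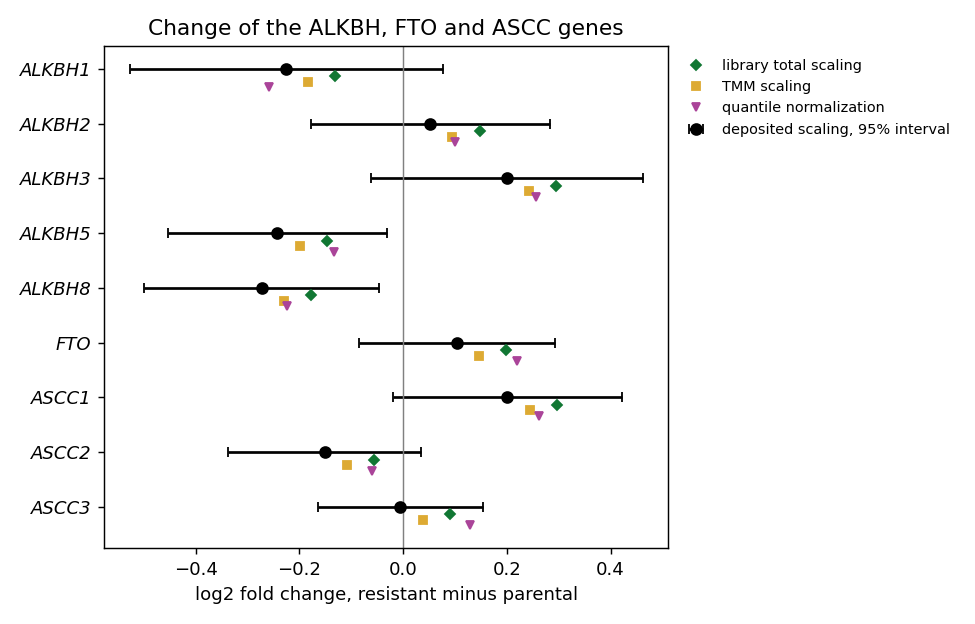
Log2 fold change (resistant minus parental) of each gene with its 95% interval under the deposited scaling (black), and under 3 other scalings (coloured symbols without intervals). Every scaling shown other than the deposited one moves ASCC3 to the right of 0, and 7 of the 9 intervals cross 0, those of ALKBH5 and ALKBH8 being the exceptions.

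Ratios of members within a library do not depend on a factor that scales the whole library, and 4 were compared. FTO to ALKBH5, the m6A demethylases, had a ratio of 0.980 and 0.871 in parental cells, against 1.16 and 1.19 in resistant ones. The resistant ratio was 1.27-fold the parental one, without overlap. ASCC1 to ASCC2 was 0.3601 and 0.3669 in parental cells, against 0.4687 and 0.4596 in resistant ones, 1.28-fold higher and without overlap, and ASCC3 to ASCC2 was 2.87 and 2.99 against 3.27 and 3.22 (1.11-fold). These 3 ratios had an exact permutation p of 0.333 (two-sided), the smallest that 2 against 2 libraries can give, and 0.444 after adjustment over the 4. The ratios of FTO to ALKBH5 and of ASCC1 to ASCC2 had to be apart. In resistant cells FTO and ASCC1 lay above and ALKBH5 and ASCC2 below the parental values, each without overlap. How often ratios of other genes are apart was not tested. ALKBH2 to ALKBH3 was 1.03 and 0.805 in parental cells, against 0.825 and 0.816 in resistant ones, and the groups overlapped (exact permutation p = 1).

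**Figure D3:**
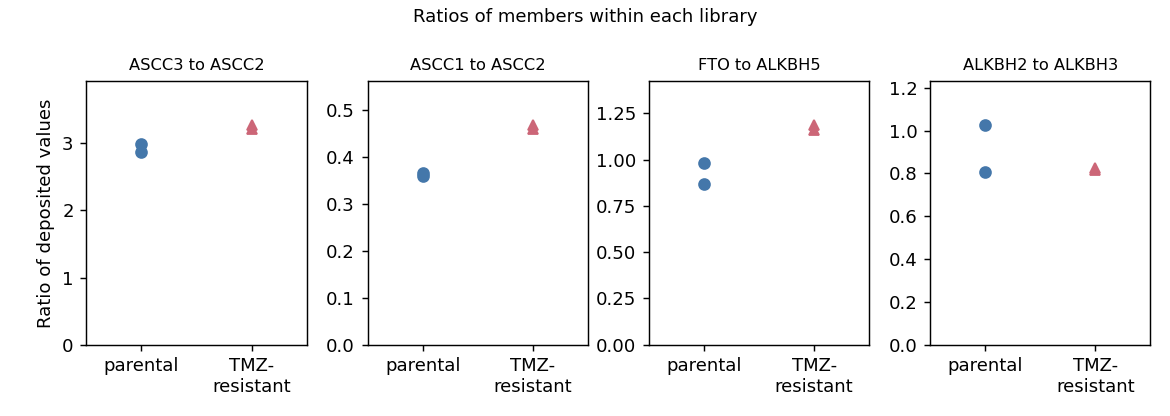
Ratio of the deposited values of 2 genes within each library, for 4 pairs, with parental libraries as circles and resistant libraries as triangles. The groups are apart for the first 3 pairs and overlap for ALKBH2 to ALKBH3, where the parental libraries span 0.805 to 1.03.

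Levels of different genes were compared per length, as the deposited value per kilobase of annotated exon with each library scaled to the same total, in the manner of TPM. ALKBH5 was highest, at 140 ± 9.65 in parental and 126 ± 3.10 in resistant cells (SD, n = 2), followed by ASCC3 at 73.2 ± 1.99 and 77.9 ± 1.47. ALKBH3 (48.2 and 59.0) and ASCC2 (54.1 and 52.0) came next and overlapped across libraries. ALKBH2 (45.3 and 50.2) lay below ASCC2 in every library but overlapped ALKBH3, which was lower than ALKBH2 in parental replicate 1 (44.6 against 47.5). ALKBH8 (26.4 and 23.3), ASCC1 (19.1 and 23.4), FTO (19.3 and 22.1) and ALKBH1 (20.9 and 19.1) were lowest, and each overlapped the next. The places of FTO and ASCC3 rest on the length used. The annotated exons of FTO add up to 21379 bases, while the median of its 9 coding transcripts in the basic annotation is 1676 bases. For ASCC3 these lengths are 11731 bases and, over 3 coding transcripts, 3433 bases. Per kilobase of the median transcript, FTO and ASCC3 stood before ALKBH5 at the head of the order, and ALKBH1 was again last. ASCC3 was ahead of FTO in both parental libraries (1465 and 1458 against 1428 and 1447) and FTO ahead of ASCC3 in both resistant ones (1469 and 1624 against 1445 and 1468). This length was chosen as an alternative after seeing the data, and which transcripts were expressed was not tested.

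The remaining ALKBH genes of the family were ALKBH4, ALKBH6 and ALKBH7, and 1 of the 3 rose, where 16.2% of all genes rose. ALKBH7, a mitochondrial member linked to fatty acid metabolism and programmed necrosis, had values of 212 and 241 in parental and 298 and 331 in resistant cells. It rose 1.39-fold (log2 fold change 0.48 ± 0.14 SE, limma adjusted p = 0.0297). The call was lost without parental replicate 1 (0.38), resistant replicate 1 (0.55) or resistant replicate 2 (0.40). It was also lost with no trend or robust moderation (limma adjusted p = 0.0649). ALKBH7 overlaps PSPN, a neurotrophic factor gene, on the opposite strand (log2 fold change 0.53, limma adjusted p = 0.0506). ALKBH4, a demethylase of actin, and ALKBH6, of little known function, did not pass, with log2 fold changes of −0.28 and −0.02 (limma adjusted p = 0.178 and 0.954), and the sign of ALKBH6 turned with scaling to the library total (0.08), by TMM (0.03) and by the median of ratios (0.01).

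OTUD4, USP7 and USP9X are deubiquitinases that stabilise the ALKBH2 and ALKBH3 proteins, and all 3 changed, 2 lower and 1 higher. Of all genes 37.1% passed, 20.9% as lower and 16.2% as higher. OTUD4, the scaffold of the group, had values of 3561 and 3769 in parental and 2417 and 2507 in resistant cells, 1.49-fold lower (log2 fold change −0.57 ± 0.08 SE, limma adjusted p = 8.76e-04). It passed in each of 14 alternative settings and overlaps ABCE1 on the opposite strand, which also fell. USP7 fell from 8976 and 8081 to 7027 and 6614 (log2 fold change −0.32, limma adjusted p = 0.0142), and USP9X rose from 6518 and 6970 to 8021 and 8721 (0.31, limma adjusted p = 0.0141). Without parental replicate 1 neither passed (USP7 −0.25, USP9X 0.26), nor without resistant replicate 2 (−0.28 and 0.25). USP7 also missed the threshold with scaling to the library total (−0.23) and by quantiles (−0.19). With no trend or robust moderation both USP7 and USP9X missed it (limma adjusted p = 0.105 and 0.103).

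Partners of the ASCC complex and genes of the ribosome collision pathway changed in 2 of 11 cases, both lower, with a list median of −0.07, where 37.1% of all genes passed. The count was 4 lower without parental replicate 1, and 1 lower and 2 higher with scaling to the library total. TRIP4, the remaining subunit of the complex, had values of 370 and 329 in parental and 401 and 434 in resistant cells and did not pass (log2 fold change 0.26 ± 0.12 SE, limma adjusted p = 0.141). It passed with scaling to the library total (0.35). ABCE1, which splits ribosomes for recycling, fell 1.38-fold, from 6677 and 6761 to 4644 and 5098 (limma adjusted p = 0.00218). PELO, the rescue factor of stalled ribosomes, fell 1.25-fold, from 1395 and 1526 to 1121 and 1223 (limma adjusted p = 0.0278). PELO overlaps ITGA1 on the same strand, which was lower as well (log2 fold change −0.69, limma adjusted p = 0.00300). The PELO call was lost without parental replicate 2 (−0.25) and without resistant replicate 1 (−0.25) or 2 (−0.38), and with scaling to the library total (−0.22) or by quantiles (−0.22). PELO also missed the threshold with no trend or robust moderation (limma adjusted p = 0.110).

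Of 9 writers of m6A, the mark that FTO and ALKBH5 remove, 4 fell and 0 rose, with a median of −0.14. Of all genes tested, 20.9% fell and 16.2% rose. METTL16, a methyltransferase that acts on its own, was 1.36-fold lower (2272 and 2019 in parental and 1556 and 1586 in resistant cells, limma adjusted p = 0.00511). METTL3, the catalytic subunit of the main writer, was 1.25-fold lower (0.0349 by the same test), and the writer subunits ZC3H13 and WTAP were 1.23-fold and 1.24-fold lower (0.0119 and 0.0158). METTL16 passed without each library in turn, but all 4 calls were lost when limma was run with no trend or robust moderation (METTL16 adjusted p = 0.0561). METTL3 did not pass without parental replicate 2 (−0.25) or resistant replicate 1 (−0.23), and WTAP did not pass without resistant replicate 1 (−0.28) or 2 (−0.34). ZC3H13 did not pass without parental replicate 1 (−0.27) or without resistant replicate 1 (−0.29) or 2 (−0.29). With scaling to the library total METTL3 (−0.22) and ZC3H13 (−0.20) missed the threshold, as they did with quantile normalization (−0.22 and −0.16), which left 2 writers lower in each case. The count of writers higher was 1 with scaling to the library total, where 3665 of all 16132 genes were higher. METTL14, the partner of METTL3, had values of 643 and 747 in parental and 801 and 792 in resistant cells and did not pass under the deposited scaling (log2 fold change 0.20, limma adjusted p = 0.177).

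Of 10 genes of m6A readers 9 were tested, of which 4 fell and 1 rose, with a median of −0.21. The shares over all genes were 20.9% lower and 16.2% higher. IGF2BP3, which stabilises m6A-marked mRNAs, rose 1.38-fold, from 4295 and 4362 to 6012 and 5895 (limma adjusted p = 0.00155), while its relative IGF2BP2 fell 1.29-fold, from 9169 and 8752 to 7164 and 6727 (0.00499). IGF2BP1, the remaining gene of that family, was below the filter at 0.813 and 1.91 in parental and 8.28 and 3.40 in resistant cells. HNRNPA2B1, a nuclear reader, fell 1.34-fold (0.00180), and it overlaps CBX3 on the opposite strand, which had a log2 fold change of −0.52. YTHDF2, which sends marked mRNAs to decay, fell 1.26-fold (0.0112), and YTHDC1, a nuclear reader named after its value was seen, fell 1.32-fold (0.0390). YTHDF2 did not pass without resistant replicate 1 (−0.28). YTHDC1 did not pass without parental replicate 1 (−0.41) or 2 (−0.40) or without resistant replicate 2 (−0.27), nor with scaling to the library total (−0.31). With no trend or robust moderation 1 reader was lower, since YTHDF2, YTHDC1 and IGF2BP2 missed the threshold. PCIF1, the writer of cap m6Am, did not pass (log2 fold change 0.13 ± 0.12 SE, limma adjusted p = 0.415).

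In the wobble uridine pathway of tRNA, in which ALKBH8 acts with TRMT112 and the Elongator genes, 0 of 9 tested genes passed (limma, with 0 of 9 at an unadjusted p under 0.05), and the median was −0.13. Of all genes, 37.1% passed and 46.7% had such an unadjusted p. ELP5, an Elongator subunit, had the smallest adjusted p, 0.135, at −0.29 (limma). TRMT112, the partner of the ALKBH8 methyltransferase, had values of 839 and 875 in parental and 840 and 887 in resistant cells. Among 10 writers of 1-methyladenosine, 3-methylcytidine and 5-methylcytidine in tRNA, 5 fell and 1 rose, with a median of −0.32. Over all genes the shares were 20.9% lower and 16.2% higher. NSUN2, the main 5-methylcytidine writer, fell (log2 fold change −0.58), from 6784 and 6799 to 4473 and 4595 (limma adjusted p = 5.30e-04). TRMT10C, of the mitochondrial tRNA methyltransferase, fell 1.64-fold, from 1017 and 951 to 568 and 635 (0.00129). TRMT6 and TRMT61A together write 1-methyladenosine on cytosolic tRNA. TRMT6 fell 1.49-fold, from 714 and 680 to 468 and 466 (0.00317), and TRMT61A fell 1.93-fold, from 628 and 761 to 295 and 432 (0.00707). These 4 genes passed without each library in turn, and TRMT61A missed the threshold with no trend or robust moderation (limma adjusted p = 0.0623). The other calls, named after their values were seen, were METTL2A, lower (−0.39), and METTL8, higher (0.30). METTL2A did not pass without parental replicate 1 (−0.28) or without resistant replicate 1 (−0.29) or 2 (−0.49), and METTL8 did not pass without parental replicate 2 (0.28) or without resistant replicate 1 (0.33) or 2 (0.26). METTL2A also missed it with scaling to the library total (−0.29), and both missed it with no trend or robust moderation. METTL2A and METTL2B are near-identical copies between which fragments may be divided with error.

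**Figure D4:**
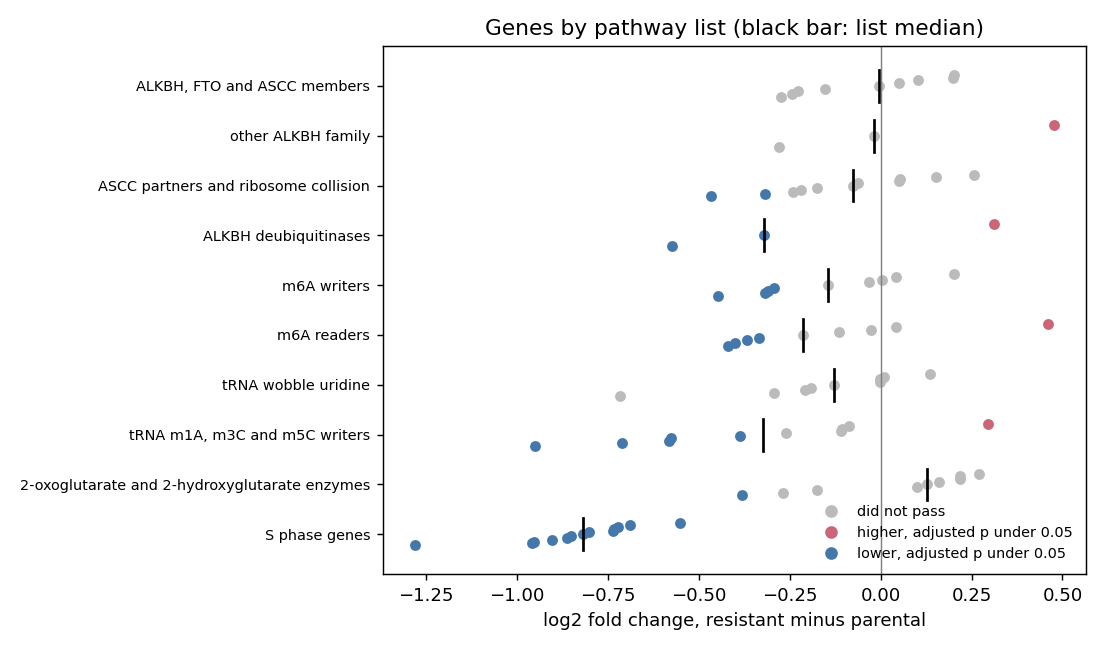
Log2 fold change (resistant minus parental) of the tested genes by list (MGMT, MPG and PCIF1 are not plotted), coloured where the limma adjusted p was under 0.05 (red higher, blue lower), with the list median as a black bar. The 9 members cluster between −0.27 and 0.20 with none coloured, while all 13 S phase genes lie at −0.55 or below.

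Over all pathway lists, without the members and the S phase genes, 18 of 66 tested genes fell, 5 rose and 43 did not pass, with a median of −0.11, where 20.9% of all genes fell and 16.2% rose. With scaling to the library total 12 were lower and 12 higher, and with quantile normalization 14 were lower and 10 higher. Of all 16132 genes, 2773 were lower and 3665 higher with library total scaling, and 3180 lower and 3087 higher with quantiles. MGMT, the repair protein for O6-methylguanine, had values of 17.1 and 3.82 in parental and 515 and 586 in resistant cells and is among the 5 that rose. MPG, the glycosylase for N-methylated purines, did not pass (log2 fold change 0.19, limma adjusted p = 0.163), except with scaling to the library total (0.28) and by quantiles (0.27). Of 9 enzymes of 2-oxoglutarate and 2-hydroxyglutarate, the cosubstrate of the dioxygenases and its competitor, 1 fell and 0 rose, with a median of 0.13. The count of those higher was 3 with scaling to the library total, 2 with TMM, 2 with the median of ratios and 4 with quantiles. IDH3A, of the mitochondrial isocitrate dehydrogenase, fell 1.30-fold, from 3472 and 3533 to 2621 and 2758 (limma adjusted p = 0.00509), and missed the threshold with no trend or robust moderation (0.0556). IDH1 had values of 2253 and 2345 in parental and 2643 and 2708 in resistant cells (log2 fold change 0.22, limma adjusted p = 0.0525) and passed with scaling to the library total (0.31), by TMM (0.26), by the median of ratios (0.25) and by quantiles (0.33). IDH2, its mitochondrial counterpart, had values of 2267 and 2026 in parental and 2533 and 2456 in resistant cells (log2 fold change 0.22, limma adjusted p = 0.0772) and passed with the same 4 scalings (0.31, 0.26, 0.25 and 0.33).

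The tested coding genes most like ALKBH8 over the 4 libraries, by the distance between gene-centred log2 values, were SKA2, CCNB2 and TMX4, at distances of 0.0210, 0.0216 and 0.0217. Their log2 fold changes were −0.28, −0.29 and −0.26, which had to lie near that of ALKBH8, since the distance is taken over the same values. All 3 passed (limma adjusted p = 0.0214, 0.0183 and 0.0434), unlike ALKBH8, where 37.1% of all genes passed. Many genes were nearly as close, since 382 of 13280 coding genes lay within a distance of 0.1.

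The deposited totals were 23163310 to 25832511 per library, or 27019137 to 30759939 fragments. The members held 353 to 6586 fragments in a library, so that counting error alone was 5.32% of the smallest value, of ALKBH1, and 1.23% of the largest, of ASCC3. Fewer cells of a kind and less RNA per cell cannot be told apart in these bulk libraries. Of 8 glial and glioma markers, EGFR, VIM, NES and CD44 were abundant, OLIG2 was at 183 to 237, and GFAP (0 to 2.87), S100B (0.956 to 4.25) and SOX2 (2.87 to 10.5) were near 0, while NES, VIM and CD44 fell in resistant cells. The 8 summed to 114681 and 121106 in the parental against 76821 and 85533 in the resistant line. The 4 epithelial markers summed to 17451 and 19714 against 34030 and 36036, with KRT8 and KRT18 higher, and the 5 hematopoietic markers to 667 and 607 against 1033 and 1088, with CD68 higher. The 3 endothelial markers summed to 1017 and 1180 against 821 and 736, with CDH5 and TEK lower, and RBFOX3 was the 1 of 3 neuronal markers that rose (137 and 156 against 252 and 287 summed). None of 4 fibroblast and 3 oligodendrocyte markers passed, and MOG was at 0 in every library. The part of these shifts in the values of the 9 genes was not tested.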

How the data were processed

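RNA-seq libraries from 2 parental and 2 TMZ-resistant GBM8401 cultures were used, grouped by the treatment label. Per the submitters' processing notes, the authors used bcl2fastq, Trimmomatic 0.36, HISAT2 2.1.0, SAMtools 1.2, Cufflinks 2.2.1 and Cuffdiff, with GRCh38.p10. The deposited values are a signal per gene, namely fragment numbers multiplied by a factor for each library and not divided by length. They were divided by their smallest step to estimate fragments, and 93.8% to 94.3% of values above 0 then came out whole within 0.05. Of 58219 gene IDs 57378 were paired with a symbol, through the GENCODE 29 annotation among other tables.

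Genes with a value of at least 10 in at least 2 libraries and a sum of at least 15 were tested. The test was limma 3.58.1 (R 4.3.3) on log2(value + 1), which understates changes of low genes, with trend and robust moderation, two-sided, and Benjamini-Hochberg adjustment over 16132 genes. The script was tested on simulated data. All 9 members were named, and pathway genes came from lists. The members and lists were chosen with earlier results of these data known. Alternatives covered pseudocount, filter, scaling, moderation, a replicate block and each library left out. Lengths and promoters came from GENCODE 29 and RefSeq.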

Additional observations from a re-analysis of the deposited data

How the results depend on the processing

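Of 126 values of the 9 genes over 14 alternatives, 115 kept their direction and their side of the threshold, 6 passed it and 5 turned sign. The sign of ASCC3 turned with library total (0.0901), TMM (0.0378), median-of-ratios (0.0238) and quantile (0.13) scaling and without resistant replicate 1 (0.0066), and that of ALKBH6 with library total (0.0774), TMM (0.0253) and median-of-ratios (0.0113) scaling and without parental replicate 2 (0.25) and resistant replicate 1 (0.01). Over the 4 fits that leave out a library, ASCC3 ranged from −0.0170 to 0.0066 and ALKBH6 from −0.285 to 0.25. The count of members higher in resistant cells, 0 as reported, was 2 with library total scaling and 1 with quantile normalization. The count lower, also 0, was 2 with the replicate block (limma adjusted p = 0.00117 for ALKBH5 and 0.00876 for ALKBH8) and ranged from 0 to 1 with a library left out. Of all 16132 genes, 3665 were called higher with library total scaling and 3087 with quantile normalization, against 2621 as reported. With the block 4721 were called lower, against 3370 as reported. In the wobble uridine list the count lower was 2 with the block, against 0 as reported. The members' median, −0.01 as reported, was 0.0901, 0.0378, 0.0238 and 0.10 with library total, TMM, median-of-ratios and quantile scaling. Pathway genes called higher, 5 as reported, numbered 12 with library total scaling, 8 with TMM, 8 with median-of-ratios scaling, 10 with quantiles, 2 with no trend or robust moderation, 12 with the replicate block, and from 2 to 5 with a library left out. Those called lower, 18 as reported, numbered 12 with library total scaling, 14 with quantiles, 6 with no trend or robust moderation, 27 with the block, and 12 to 17 with a library left out. Of these 23 calls 8 held in all 14 alternatives and 15 were lost in some. Over all genes, 5991 calls became 3686 with no trend or robust moderation, 3593 and 3842 without resistant replicate 1 and 2, and 8624 with the block. The difference in the log2 ratio of ALKBH2 to ALKBH3, resistant minus parental, was −0.15 as reported and 0.03 without parental replicate 1. The cause of these shifts was not tested.

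Same-numbered libraries deviated together with a correlation of 0.265, but with 2 pairs and no label that ties them they share only a number, so the block was not used for the reported values. With a library left out, the lone library of its group is assumed to vary like the others. The alternatives with edgeR and DESeq2 were not run, because whole counts could not be recovered for every value. With 2 libraries in a group, the intervals reach 1.44-fold lower (ALKBH1) and 1.38-fold higher (ALKBH3).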
